A study of Mus musculus with 12 samples.

Results

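A set of 4 genes whose products are typical of neurons, namely Map2, Celf4, Elavl3 and Tbr1, were followed through the peak lists of an N6-methyladenosine (m6A) immunoprecipitation. They were taken by gene symbol from the 6 mRNA lists and are 4 of the 10030 genes that had an mRNA peak in at least 1 list. Together they held 24 mRNA peaks, 8 in control and 16 in hypoxia/reoxygenation (H/R) lists. The H/R lists were longer as a whole, with 13954 to 22038 mRNA peaks each against 7863 to 12180 in control. The 24 peaks fell into 9 regions once peaks that overlapped by at least 1 bp were joined. Celf4 was called in all 6 lists (39.5% of the 10030 genes were), Map2 in exactly 5 (10.8% of genes were), and Elavl3 and Tbr1 each in exactly 1 list, an H/R list (18.2% of genes were).

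The cells were C17.2, an immortalised neural stem cell (NSC) line from mouse, so every sample stands for 1 line. No difference in genotype between the samples is stated. The control group was cultured without hypoxia, and the H/R group spent 12 h at 5% oxygen followed by 48 h in standard oxygen, a model of ischemia and reperfusion. Each group had 3 immunoprecipitates and 3 inputs, which gave 6 libraries, A to C in each group. Values by library are given below in the order A, B, C. The labels do not state that replicates were cultured separately, and the p-values measure the spread between these libraries only, which may be technical.

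m6A is laid down on mRNA by a methyltransferase complex around METTL3 and METTL14, mostly at short consensus sites, and it is known to collect near stop codons and in long internal exons. Reader proteins that bind it influence splicing, decay and translation of the message. MAP2 binds and stabilises microtubules in dendrites and is made in a high-molecular-weight form and in the shorter MAP2C form, which skips a very long coding exon. CELF4 is an RNA-binding protein of excitatory neurons, and ELAVL3, also called HuC, is an RNA-binding protein that binds U-rich elements and marks neurons soon after they leave the cell cycle. TBR1 is a T-box transcription factor of early-born glutamatergic cortical neurons.

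The sequences that carry the peaks are given first, from RefSeq and genome build GRCm38.p6 (mm10), on the strand of the transcript. Capitals mark the start or stop codon and every DRACH site, the m6A consensus (A, G or T, then A or G, then AC, then A, C or T). DRACH and GGAC were searched on the transcript strand only, overlapping sites were counted, and a GGAC followed by A, C or T is also a DRACH site. A match is no measured methylation site. The single Elavl3 peak and the single Tbr1 peak both ran over the stop codon, and their coding ends are shown for that reason. The coding part of the Map2 start codon exon was under a peak in all 6 libraries. The 120 bases of the long Map2 exon are those with the most DRACH sites in the part that was under a peak in 5 lists.
Elavl3, chr9:22018503-22018675, minus strand, from within the last exon to the stop codon: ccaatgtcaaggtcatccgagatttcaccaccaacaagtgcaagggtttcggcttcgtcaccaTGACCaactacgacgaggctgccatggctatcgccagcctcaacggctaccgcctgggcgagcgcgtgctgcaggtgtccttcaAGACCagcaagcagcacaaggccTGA
Tbr1, chr2:61812258-61812438, plus strand, from within the last exon to the stop codon: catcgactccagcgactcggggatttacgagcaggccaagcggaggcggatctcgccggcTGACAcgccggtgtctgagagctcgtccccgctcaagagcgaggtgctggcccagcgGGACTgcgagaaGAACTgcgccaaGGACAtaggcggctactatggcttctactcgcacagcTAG
Map2, chr1:66380512-66380773, plus strand, from the start codon to the end of its exon: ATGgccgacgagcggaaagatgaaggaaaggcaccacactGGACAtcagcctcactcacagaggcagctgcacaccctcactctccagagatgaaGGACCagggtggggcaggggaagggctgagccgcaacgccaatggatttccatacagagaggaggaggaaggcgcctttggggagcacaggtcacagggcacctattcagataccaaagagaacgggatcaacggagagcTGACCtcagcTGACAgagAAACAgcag
Map2, chr1:66415989-66416108, plus strand, within the long exon: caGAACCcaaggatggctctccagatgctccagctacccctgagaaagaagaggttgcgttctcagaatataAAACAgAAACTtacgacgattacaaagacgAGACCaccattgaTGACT
The Elavl3 stretch of 173 bases held 2 DRACH sites and no GGAC, and the Tbr1 stretch of 181 bases held 4, of which 2 were GGAC. The Map2 start codon stretch of 262 bases held 5 DRACH sites, 2 of them GGAC. The 120 bases of the long exon held 5 DRACH sites and no GGAC. No sequence is shown for Celf4.

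The lists differed in length before any gene was considered. The mRNA lists held 7863 to 12180 peaks in control and 13954 to 22038 in H/R libraries, and the mean number of peaks was higher after H/R for 82.6% of all genes. The median fold enrichment of a list ranged from 21.8 to 33.9 in control and from 9.34 to 15.5 in H/R libraries. The peak caller's own false discovery rate had a median of 100% in every control list and of 68.9% to 85.9% in the H/R lists. Read totals were not used here, so list length and peak strength were not set against depth. The NSC label was checked on Nes, which encodes the intermediate filament nestin, and Sox2, a stem cell transcription factor, and both were called in all 6 lists. In bulk RNA, fewer cells of a type and less RNA per cell cannot be told apart.

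**Figure D1:**
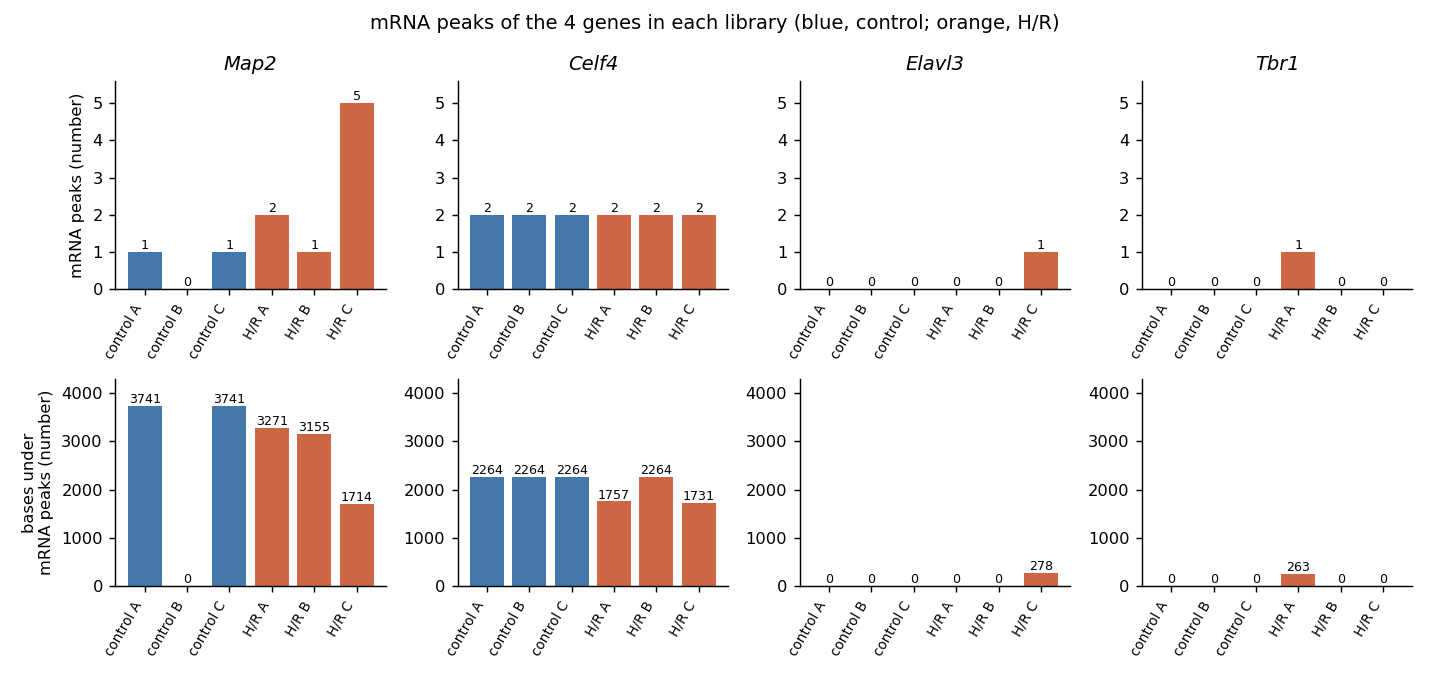
Number of mRNA peaks (top) and bases under them (bottom) for each gene, one bar per library, control in blue and H/R in orange. Map2 ranges from 0 peaks in control B to 5 in H/R C, Celf4 has 2 peaks in every library, and Elavl3 and Tbr1 have 1 peak in 1 H/R library each.

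The first question was whether the genes carried more peaks after H/R. Map2, the dendritic microtubule protein, had 1, 0 and 1 mRNA peaks in the control libraries and 2, 1 and 5 in the H/R libraries. H/R C stood highest, and the groups overlapped at 1 peak. The means were 0.667 ± 0.577 and 2.67 ± 2.08 peaks (SD, n = 3 each), a difference of 2 peaks (two-sided exact permutation p = 0.3, adjusted p = 0.898 over all genes). Celf4, the CELF-family RNA-binding protein, had 2 peaks in every library, so its difference was 0. Elavl3 had 1 peak, in H/R C, and Tbr1 had 1 peak, in H/R A, and both were without a peak in the other 5 lists (exact permutation p = 1 for each). With 3 against 3 the smallest possible p is 0.1, so none of these comparisons could pass 0.05, and over all 10030 genes 0 had an adjusted p and 0 an unadjusted p under 0.05.

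For 0 of the 4 genes was the number of peaks higher in every H/R list than in every control list, against 14.8% of all genes, and for 0 was it lower, against 0.12%. By bases under peaks 0 of the 4 genes separated the groups either, against 16.3% of all genes that were higher in every H/R list and 1.09% that were lower. Map2 had 3741, 0 and 3741 bases under peaks in the control libraries and 3271, 3155 and 1714 in the H/R libraries. Control B was lowest and the other control libraries were highest, so that the H/R values lay between them. The difference of the means was 219 bases (exact permutation p = 1). Without control B it was -1028 bases, without H/R A -59.5 and without H/R B -1.5. Leaving out any other library kept it positive, so the direction depended on which libraries were used. Celf4 had 2264 bases in every control library and 1757, 2264 and 1731 after H/R, so H/R B equalled the controls. Its difference was -347 bases (exact permutation p = 0.4, adjusted p = 0.833). Elavl3 had 278 bases under its peak and Tbr1 263.

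Map2 lies on the plus strand of chromosome 1, from 66175202 to 66442583. Its most often listed mRNA peak lay on a single exon, chr1:66412407-66416147, with 3741 bases of coding sequence, listed under the transcript uc007bhz.1. This is exon 7 of 15 in the RefSeq transcript that holds it, 1 of 3 curated Map2 transcripts, and 21 of 34 RefSeq models in all have an exon there. It is the long exon of high-molecular-weight MAP2. In control A and control C the peak covered the exon from end to end. In H/R A it covered 2953 and in H/R B 3155 bases, both to the downstream end of the exon. In H/R C a gap split it into a peak of 503 bases at the upstream end and a peak of 786 bases at the downstream end. The last 786 bases were therefore under a peak in all 5 lists that called the exon. Peaks in these lists often stop where an exon stops, since 62.8% to 75.9% of mRNA peaks of a list had both ends on annotated exon ends.

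The fold enrichment of the long-exon peak was 36.8 in control A and 23.4 in control C, and 7.07 in H/R A, 18.5 in H/R B and 16.2 for the stronger of its pieces in H/R C. The fold of both control libraries with the peak lay above that of every H/R library. Of the genes called in all 6 lists, which Map2 was not, 53.6% had a lower highest fold in every H/R list. Ranked by fold within its own list, the long-exon peak exceeded 78.6% and 35.8% of the peaks in control A and control C. In H/R A, B and C the shares were 31.7%, 61.5% and 74.9%, so the groups overlapped by rank. The p score of the long-exon peak, defined as 10 times the caller's -log10 p, was 758 in control A and 126 in control C. After H/R it was 65.0, 91.6 and 216 (the higher piece). The groups overlapped by p score, and control A alone stood far above the rest. There 68.7% of the peaks of its list had a lower score. In H/R A only 7.41% of the peaks of the list had a lower score. Control B had no listed peak on this exon, so no value could be set there and no test was run.

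The other 4 Map2 regions were each called in 1 H/R list. H/R C held chr1:66399389-66399502, a coding exon of 114 bases covered from end to end (fold 7.33, p score 69.5). It also held chr1:66401444-66401719 (fold 15.0, p score 214), which begins on a coding exon of 78 bases and runs on past it, where no RefSeq model and 1 of 24 GENCODE transcripts has an exon over the whole stretch. These are exons 5 and 6 of the long transcript, directly upstream of the long exon. The smallest peak, 35 bases at chr1:66431527-66431561 in H/R C, lay on an alternative coding exon of 93 bases that 23 of 34 RefSeq models use (fold 5.28, p score 101). In H/R A a peak of 318 bases at chr1:66425197-66425514 (fold 7.04, p score 111) lay on exon 12, which codes in all 34 RefSeq models. None of the 5 Map2 mRNA regions touched a stop codon.

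**Figure D2:**
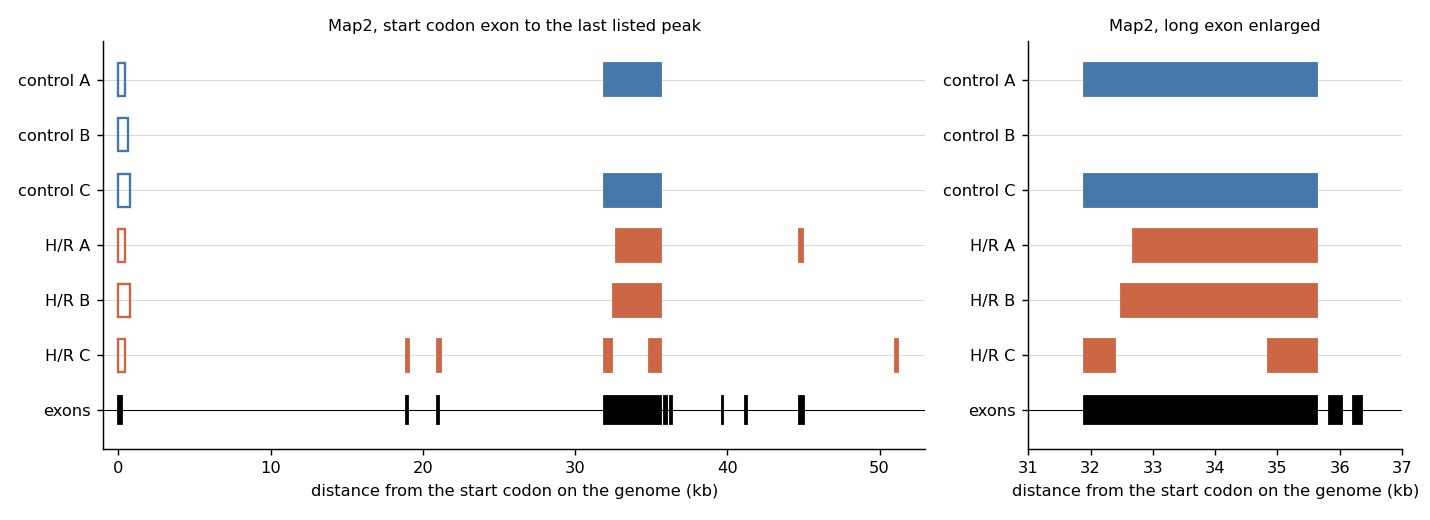
Listed Map2 peaks by library along the genome, in kb from the start codon, with the exons of the long transcript in black (left, start codon to the last listed peak, where narrow peaks and exons are drawn at a minimum width; right, the long exon). Filled boxes are peaks of the mRNA lists and open boxes the peak that the lncRNA lists hold on the start codon exon, which every library has, control B included.

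The lists of long noncoding RNAs (lncRNA) held a further Map2 peak that the mRNA lists lacked. It was annotated to ENSMUST00000137807, which GENCODE describes as a retained-intron transcript of Map2, and it was called in all 6 lists. The peak always began at position 66380489 and was 448 to 767 bases long, and the 448 bases common to all libraries hold the Map2 start codon at position 66380512 and the rest of that coding exon. In 31 of 34 RefSeq Map2 models an exon overlaps these bases, so sense mRNA and this transcript cannot be told apart at that exon. Control B, which had no mRNA peak in Map2, had this peak with a fold enrichment of 40.2 and a p score of 142. Counted with the lncRNA lists, Map2 thus had a listed peak in every library.

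The p score of the start codon exon peak was 74.2, 142 and 72.5 in the control libraries and 959, 322 and 567 in the H/R libraries. Every H/R value lay above every control value. The means were 96.2 ± 39.6 and 616 ± 322 (SD, n = 3 each, exact permutation p = 0.1, the smallest possible). Such separation was common, since 50.7% of the 602 lncRNA transcripts called in all 6 lists had a higher score in every H/R list. The fold enrichment did not separate the groups, with 15.1, 40.2 and 28.2 in control and 25.2, 23.2 and 18.7 in H/R libraries (exact permutation p = 0.6). Ranked within its own lncRNA list, the peak exceeded the fold of 24.6%, 62.1% and 47.3% of the peaks in the control libraries. After H/R these shares were 91.7%, 73.7% and 83.0%, each above every control share (exact permutation p = 0.1). How many lncRNA transcripts separate the groups by this rank was not computed, so the separation may be common. The direction for the fold thus depended on whether the value or its rank was taken.

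H/R C alone held 2 more lncRNA peaks at the locus. A peak of 196 bases at chr1:66195183-66195378, near the upstream end of the gene, was annotated to another Map2 transcript, ENSMUST00000125844 (fold 5.45). A peak of 208 bases at chr1:66322448-66322655 was annotated to Gm10558, a gene on the opposite strand (fold 4.43). It overlaps exon 2 of the long Map2 transcript, and whether the counting used the strand is not given in the sources used here. The circular RNA (circRNA) lists held a circRNA from position 66412407 to 66416866 in the 5 lists that called the long exon, with the same peaks under the same caller numbers as the mRNA lists. These circRNA entries are therefore the mRNA-list peaks a second time and add no measurement. No lncRNA or circRNA peak lay within Celf4, Elavl3 or Tbr1 in any of the 6 libraries.

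Celf4 lies on the minus strand of chromosome 18, from 25477620 to 25754520, and both of its peaks lay at its downstream end. The larger covered the last exon, chr18:25477620-25479711, which codes in 17 of 76 RefSeq models, whose stop codon lies at positions 25479685-25479687, and is 3' untranslated in the others that code. The smaller covered the exon before it, chr18:25486794-25486965, with 172 bases in every library. On the listed transcript, NM_133195, 128 of these bases are coding, the stop codon included, and 44 are untranslated. Both regions were in all 6 lists, as were 21.9% of the 27132 regions of all genes. The last exon was covered from end to end, 2092 bases, in the 3 control libraries and H/R B. In H/R A and H/R C the peak was 1585 and 1559 bases long and stopped short of the distal end of the exon.

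The fold enrichment of the last-exon peak was 39.8, 32.9 and 35.6 in the control libraries and 18.6, 28.5 and 15.9 in the H/R libraries. Every H/R value was lower. The means were 36.1 ± 3.46 and 21.0 ± 6.61 (SD, n = 3 each), a ratio of 0.582 (exact permutation p = 0.1, the smallest possible, adjusted p = 0.186 over the 3966 genes called in all lists). The median ratio over these genes was 0.595, and 53.6% of them had a lower highest fold in every H/R list. The Celf4 value thus lay close to the median of all such genes.

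The p score of the same peak moved the other way, with 658, 186 and 208 in control and 2946, 1845 and 1027 in H/R libraries. Every H/R score was higher, with means of 351 ± 266 and 1939 ± 963 (SD, n = 3 each) and a ratio of 5.53 (exact permutation p = 0.1, adjusted p = 0.203). The median ratio over the 3966 genes was 2.40, and 49.1% of them had a higher score in every H/R list. The combination of a lower fold and a higher score in every H/R list was found in 19.7% of these genes. Leaving out each library in turn kept every Celf4 difference in fold between -18.8 and -12.5 and in score between 1085 and 2045.

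Ranks within a list gave another picture of the fold. Of the peaks in its own list, 81.5%, 47.6% and 67.2% had a lower fold than the last-exon peak in the control libraries, and 82.3%, 82.0% and 74.1% in the H/R libraries. Control A lay among the H/R values, so the groups overlapped, and the mean percentile was higher by 14.1 points in H/R (exact permutation p = 0.2). By p score the percentiles were 66.0%, 40.4% and 49.4% in control and 84.3%, 79.9% and 74.0% in H/R libraries, without overlap (exact permutation p = 0.1). How many genes separate the groups by this percentile was not computed, so such separation may be common. By the highest p score itself, 49.1% of the 3966 genes called in all 6 lists were higher in every H/R list.

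The smaller Celf4 peak was weaker than the last-exon peak in all 6 libraries. Its fold enrichment was 33.4, 26.7 and 16.8 in control and 13.7, 23.8 and 11.4 in H/R libraries, and the groups overlapped at H/R B (exact permutation p = 0.2). Its p score was 340, 71.9 and 64.9 in control and 507, 469 and 444 in H/R libraries (exact permutation p = 0.1, the smallest possible). Every H/R score was higher, and the share of such smaller peaks that separate the groups in this way was not computed. The fold of the last-exon peak over that of the smaller one was 1.19, 1.23 and 2.12 in the control libraries and 1.36, 1.20 and 1.40 in the H/R libraries. Control C was highest, and the groups overlapped.

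**Figure D3:**
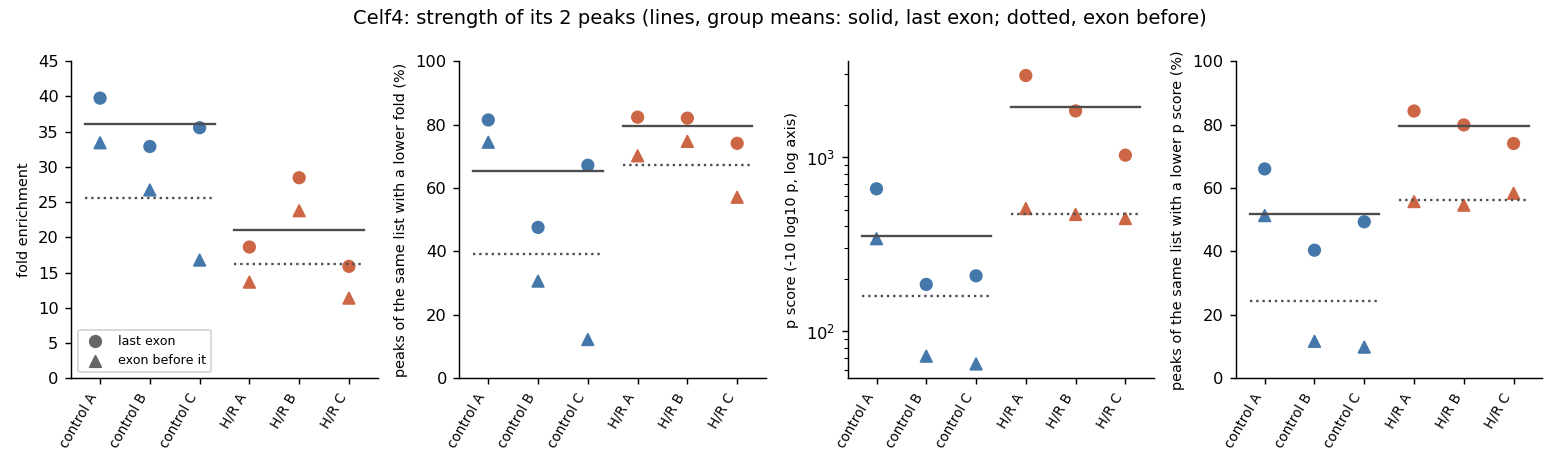
Celf4 peak on the last exon (circles) and on the exon before it (triangles) in each library, as deposited fold enrichment, share of the same list with a lower fold, p score on a log axis, and share of the same list with a lower p score. Lines are group means (n = 3), solid for the last exon. The fold of the last exon is lower in every H/R library and its p score higher, while its rank by fold overlaps between the groups.

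Elavl3 lies on the minus strand of chromosome 9, from 22015005 to 22052146. Its peak in H/R C, chr9:22018398-22018675, lay on the last exon, exon 7 of 7. It covered the last 173 coding bases of NM_010487, shown above, and 105 bases after the stop codon. These coding bases belong to the last RNA recognition motif of the protein. The fold enrichment was 9.03, the p score 179 and the caller's false discovery rate 77.9%. Of the peaks in H/R C, 42.6% had a lower fold and 37.4% a lower score.

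Tbr1 lies on the plus strand of chromosome 2, from 61802863 to 61814114. Its peak in H/R A, chr2:61812258-61812520, lay on the last exon, exon 6 of 6, and covered the last 181 coding bases of NM_009322, shown above, and 82 bases after the stop codon. The fold enrichment was 4.82, the p score 83.5 and the false discovery rate 98.1%. It was near the bottom of its list, where 9.77% of the peaks had a lower fold and 14.1% a lower score. The lowest false discovery rate of any of the 24 peaks of the 4 genes was 25.5%, for Celf4 in H/R A.

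Celf4, Elavl3 and Tbr1, 3 of the 4 genes, had a peak on an annotated stop codon, against 61.7% of the 9396 genes whose codons could be looked up. Both genes called in 1 list only, Elavl3 and Tbr1, had that peak on the stop codon, against 28.4% of the 1840 genes called in 1 list. Per library, 33.9% to 36.2% of control peaks and 23.6% to 29.2% of H/R peaks lay on a stop codon. Of the 9 regions, 6 were in exactly 1 list, an H/R list, against 32.9% of all regions. None was found in control lists only.

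**Figure D4:**
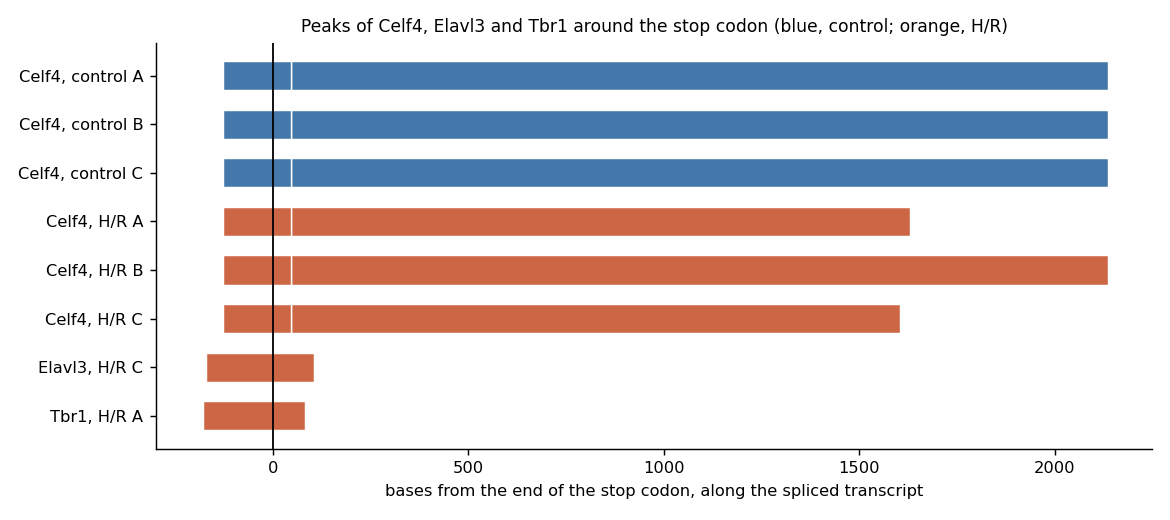
Peaks of Celf4, Elavl3 and Tbr1 in bases from the end of the stop codon along the spliced transcript, one row per gene and library, control in blue and H/R in orange. Every row crosses the stop codon at 0. The white line in the Celf4 rows is the border between the exon before the last and the last exon, and the last-exon peak is shorter in H/R A and H/R C.

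The regions differed in how many consensus sites they held. The last exon of Celf4 had 60 DRACH sites, 28.7 per kb, where all mRNA peaks together had 20.4 per kb, and 3.81% of the 1678 peaks within 10% of its length had as many. The long Map2 exon had 90, 24.1 per kb, and 9.67% of 538 peaks of like length had as many. The part of the Map2 start codon exon peak common to all libraries had 11 in 448 bases, and 31.1% of 1821 peaks of like length had as many. The exon before the last of Celf4 had 3 (63.5% of 2460 peaks of like length had as many), the Tbr1 peak 4 (60.4% of 1938) and the Elavl3 peak 2 (87.5% of 1858). At least 1 DRACH site was present in 94.4% to 100% of the peaks of like length for these 6 regions. GGAC was found once in the exon before the last of Celf4 (53.9% of peaks of like length held it) and not in the Elavl3 peak (70.7% held it).

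The relatives of the 4 genes were looked up in the same lists. Of the ELAV family, Elavl1, the ubiquitous member, and Elavl2 and Elavl3, neuronal members, each had 1 peak in H/R C and none elsewhere, and Elavl4 had none. H/R C was the longest list, with 22038 mRNA peaks, and 18.2% of all genes were called in exactly 1 list, an H/R list. Of the CELF family, Celf3 was called in all 6 lists, with 1 peak in each control library and 3, 1 and 4 after H/R. Celf5 had no control peak and 1, 1 and 2 peaks after H/R, and was the family's single member with more peaks in every H/R list (14.8% of all genes had). Celf1, Celf2 and Celf6 had none. The T-box factors closest to Tbr1, namely Eomes, which marks intermediate progenitors, and Tbx21, an immune factor, had no peak.

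Other microtubule-associated proteins were listed more or less often than Map2. Map1b, a large axonal protein, had 2 peaks in every control library and 3, 3 and 5 after H/R. Map4, the widely expressed member, had 5, 2 and 2 peaks in control and 8, 6 and 8 in H/R libraries. Mapt, which encodes tau, overlapped between the groups, with 6, 1 and 2 against 6, 3 and 2 peaks, and so did Map1a, with 2, 0 and 0 against 2, 1 and 2. Of 17 genes of this list, 14 had a peak, and the share of all annotated genes with a peak was not computed. Among the 14 genes, 6 were called in all 6 lists (39.5% of all genes with a peak were). More peaks in every H/R list were found for 6 (14.8% of all genes with a peak had).

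**Figure D5:**
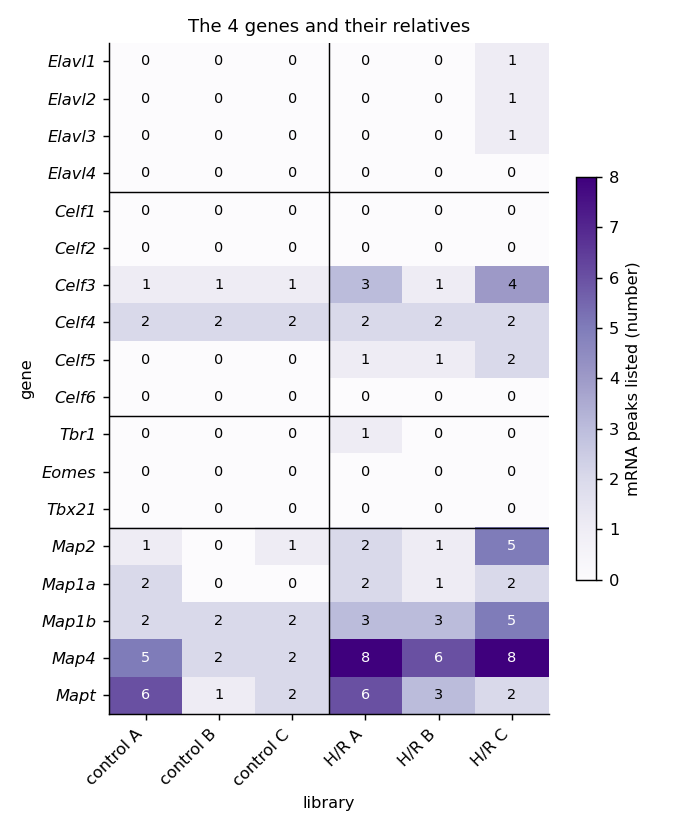
Number of mRNA peaks listed for each gene (rows) in each library (columns), with control libraries left of the line. The ELAV family is listed in H/R C only, Celf3 and Celf4 in every library, and Map1b, Map4 and Mapt in every library, unlike Map2.

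Most of the other neuron genes looked up had no listed mRNA peak. Of 30 neuron genes, which include the 4 genes described here, 10 had an mRNA peak in any list. The share of all annotated genes with a peak was not computed, so this count and those below cannot be called high or low. Of the 10 genes with a peak, 2 were in all 6 lists (39.5% of all genes with a peak were), namely Celf4 and Ncam1, an adhesion molecule. The number of the 30 genes called was 3, 2 and 3 in control and 6, 3 and 8 in H/R libraries. The lists as a whole named 6470, 5208 and 4707 genes in control and 8114, 6639 and 8936 in H/R libraries. Tubb3, Dcx and Rbfox3, which define young and mature neurons, had no peak in any list. A gene without a listed peak may be unexpressed, unmethylated or below the caller's threshold, which the lists cannot tell apart. Of 18 cortical neuron transcription factors 5 had a peak, and Cux1 and Mef2c were among those called in all 6 lists. Of 9 partners and autism-linked targets of TBR1 4 had a peak, of which Foxp1, Auts2 and Nr4a2 were in all 6 lists (39.5% of all genes with a peak were) and 2 had more peaks in every H/R list (14.8% of all genes had).

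Genes with the pattern most like Map2 and Celf4 were found by Pearson's r of log2(1 + bases per 1000000 bases listed) over the 6 lists. For Map2 these were Zdhhc1, 1110008L16Rik and D3Ertd254e (r = 0.9997, 0.9996 and 0.9993), all without a peak in control B, and 101 genes reached 0.99. For Celf4 these were Gm4076, Aff4 and Supv3l1 (r = 0.9986, 0.9973 and 0.997), and 21 genes reached 0.99. The 6 points share the libraries and the length of their lists, so these values describe the lists.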

How the data were processed

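MeRIP-seq compares RNA fragments bound by an m6A antibody with the input RNA. The 12 samples formed 4 groups of 3 (control and H/R, immunoprecipitate and input), and 18 deposited peak lists (mRNA, lncRNA and circRNA for 6 libraries) were read. Reads, by the methods and the submitters' processing notes, were trimmed with cutadapt (1.9.3) and aligned with HISAT2 (2.0.4) to mm10. For each library the authors ran MACS (version not given in the sources used here) on the immunoprecipitate against its input, and then selected and annotated the exonic stretches with in-house software. They did not pool replicates. The deposited p score is 10 times the -log10 of the p-value, the deposited fold enrichment is a ratio over the local background, and the deposited FDR, the caller's false discovery rate, is a percent. The lowest score in each mRNA list lay between 50 and 50.03. The lists give no read numbers, so no interval that needs depth was computed.

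Peaks and bases per gene were counted with Python 3.11.15 and pandas 2.3.3, compared between the groups (3 against 3) with an exact permutation test on mean differences, two-sided, and adjusted by Benjamini-Hochberg over all 10030 genes at a threshold of 0.05. The test was checked on simulated data. Exons and codons came from GENCODE vM21 and RefSeq on GRCm38.p6, whose coordinates equal mm10, and sequences were read with pysam 0.24.0. Map2 transcripts whose identifiers these annotations do not hold were placed by coordinates. Alternatives were a p score of at least 100, a fold of at least 10, lists of equal length (7863 peaks), counts per 10000 listed peaks or per 1000000 listed bases, an overlap of at least 50%, and leaving out each library. Percentiles within a list, and leaving out libraries for peak strength, were added after seeing the data.

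The 4 genes and all gene lists were chosen with earlier results of these data known. The text names the 4 genes, the ELAV and CELF families, Eomes, Tbx21, Map1a, Map1b, Map4 and Mapt, at most 3 genes of any other list (highest summed p score among genes called in all 6 lists), 3 defining neuron genes without a peak, and the 3 genes most like each gene called in at least 3 lists. The result of 1 gene that this rule names is not reported here.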

Additional observations from a re-analysis of the deposited data

Results flagged for a closer look

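The peak caller numbers its peaks along each chromosome, and the lists skip the numbers of peaks that were not kept. Between the first and the last listed Map2 peak, mRNA and lncRNA lists together, 0, 0 and 1 numbers were skipped in control A, B and C. In H/R A, B and C it was 3, 3 and 13, which drew attention because each lies above the highest control value. These skipped peaks have no position, fold or score in the lists. The span they were counted over differs between libraries, since the first and last listed peaks differ, and it is widest in H/R C. Control B had only 1 listed Map2 peak, so its 0 was fixed in advance. The share of all genes that separate the groups by this count was not computed, so it may be large. Counted between the nearest listed peaks on either side of the gene, 10, 20 and 15 numbers were skipped in control A, B and C. The H/R libraries had 17, 8 and 27, so by this count the groups overlapped. The whole run of numbers was 117271 in H/R C and 86134 and 50003 in H/R A and B, against 48684 to 71637 in control libraries, so the groups overlapped.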

How the results depend on the processing

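No difference passed 0.05 under any alternative, where the lowest p was 0.1. With so few libraries no exact permutation p under 0.1 is possible, so this was fixed in advance. Of 112 values from alternatives 82 kept their direction or count, and these include differences that stayed at 0. No paired analysis was possible because the lists carry letters, which the labels do not link to their replicate numbers. The Map2 difference in peaks (2) became -0.667 with lists of equal length. Its difference in bases (219) became -1855 with a p score of at least 100, -921 with a fold of at least 10, -2494 with lists of equal length and -65.0 per 1000000 listed bases. The Celf4 difference in peaks (0) became 0.667 with a p score of at least 100, -0.333 with lists of equal length and fell by 1.005 per 10000 listed peaks. For Elavl3 the differences in peaks and bases became 0 with a fold of at least 10 and with lists of equal length, and for Tbr1 also with a p score of at least 100. The 9 regions became 4 with a fold of at least 10 and 3 with lists of equal length, 1 in Map2 and 2 in Celf4. As a percentile within its list, the fold of the last-exon Celf4 peak went from a difference of -15.1 to 14.1 points, and that of the Map2 start codon exon peak from -5.43 to 38.2 points. The causes of these changes were not tested. Leaving out each library in turn gave 0.833 to 2.83 peaks and -1028 to 843 bases for Map2, 0 peaks and -520 to -254 bases for Celf4, 0 to 0.5 peaks and 0 to 139 bases for Elavl3, and 0 to 0.5 peaks and 0 to 132 bases for Tbr1. The fold of the Celf4 peak stayed between -18.8 and -12.5 and its score between 1085 and 2045, and for the Map2 start codon exon peak the range was 348 to 667 for the score and -11.8 to 0.763 for the fold. The Elavl3 and Tbr1 values rest on H/R C and H/R A.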

Other observations

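Genes of other cell types and of NSCs were looked up in the same mRNA lists. The share of all annotated genes with a peak was not computed, so the counts of genes with a peak cannot be called high or low. Of all genes with a peak, 39.5% were called in all 6 lists. Of 15 NSC genes 7 had a peak, and Mki67, a marker of cycling cells, had 4 peaks in every control library and 6, 6 and 7 after H/R. Among the 15 NSC genes 2, Mki67 included, had more peaks in every H/R list (14.8% of all genes had). The median difference in peaks over the NSC genes with a peak was 0. Nes and Sox2 had 1 peak in every library. Of 20 neuronal RNA-binding protein genes 13 had a peak, of which Cpeb4 and Cpeb3, regulators of cytoplasmic polyadenylation and translation, and Fmr1, which encodes the fragile X protein, were called in all 6 lists. Of 17 T-box factors 7 had a peak, and Mga and Tbx18 were called in all 6 lists. Of 7 astrocyte genes 2 had a peak, and Gja1, the gap junction protein of astrocytes and progenitors, was called in all 6 lists. Of 9 oligodendrocyte lineage genes 3 had a peak and of 6 microglia genes 1, and none of either was called in all lists. Of 7 fibroblast and mesenchyme genes 3 had a peak, and Pdgfrb, a receptor of mesenchymal cells, was called in all 6 lists.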
